A study of Saccharomyces cerevisiae with 12 samples.

Results

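Transcripts of 10 genes that drive anaphase and the exit from mitosis were followed in budding yeast with and without mitochondrial DNA, before and after glucose was withdrawn. The genes are CDC20, PDS1, CDC5, TEM1, CDC15, DBF2, MOB1, CDC14, NET1 and CDH1. They were chosen by name, as known regulators of this step, among 5656 genes that have a probe set of their own on the array. Each is represented by 1 probe set, so no choice between probe sets was needed.

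The arrays fall into 4 groups of 3 biological replicates, 12 arrays in all. They are ρ0 cells without glucose, ρ0 cells in glucose, ρ+ cells without glucose and ρ+ cells in glucose, where ρ0 cells lack mitochondrial DNA and ρ+ cells carry it. All cultures were grown at 22 °C in CM medium with 2% glucose to an OD600 of 1. One part of each culture was harvested there. The rest was washed and shaken in CM without glucose for 4 h, and poly(A) RNA of all groups was hybridised after biotin labelling. No group was washed and shaken for the same time with glucose, so the loss of sugar cannot be told apart from the wash and the extra time. Glucose withdrawal below stands for all of these together. The labels used here give no further genotype of the strains, nor how the ρ0 cells were made.

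As background, anaphase starts when the anaphase-promoting complex (APC/C), a ubiquitin ligase, is switched on by Cdc20 and marks the securin Pds1 for destruction. This frees the separase Esp1 to cut the cohesin that holds sister chromatids. The polo kinase Cdc5 then helps to release the phosphatase Cdc14 from the nucleolus, where Net1 (also called Cfi1) holds it. The mitotic exit network keeps Cdc14 free: the GTPase Tem1 acts on the kinase Cdc15, which activates the kinase Dbf2 bound to its partner Mob1. Cdc14 then turns on Cdh1, a second activator of the APC/C, and mitotic cyclins are destroyed. Several of these genes are transcribed in a wave at G2 and M phase, so in a growing culture their average level also depends on the share of cells in that phase.

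The measured value is the MAS5 signal of a probe set, in arbitrary units. The detection level used here was 5.82, the 25th percentile of all signals. All 10 genes passed the filter, which asks for a mean above that level in at least 1 group. CDC15 exceeded the level on 8 of 12 arrays and the other 9 genes on all 12. CDC15, PDS1 and CDH1 were dim, with highest signals of 9.97, 13.5 and 14.8 on any array. The probe set of MOB1 is marked by the array's naming as shared by similar transcripts, so its values are uncertain.

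The arrays were checked first. OLI1, a gene of mitochondrial DNA for a subunit of the ATP synthase, averaged 0.320 ± 0.0797 in ρ0 cells without glucose, against 128 ± 15.2 in ρ+ cells without glucose (SD, n = 3 each). In glucose it averaged 0.285 ± 0.131 in ρ0 cells, against 128 ± 29.3 in ρ+ cells. Of 8 genes of mitochondrial DNA looked at, 2 passed the filter, OLI1 and COX1. COX1 averaged 0.689 ± 0.454 in ρ0 cells, against 12.5 ± 2.01 in ρ+ cells, without glucose. In glucose it averaged 1.26 ± 0.499 against 6.23 ± 3.57, a difference not called under every alternative. The others were below the detection level on every array of both strains, so they say nothing about the strain labels. Replicates correlated with each other by 0.956 to 0.990 over the 5361 genes tested. The 5′ to 3′ signal ratio of SPT15, a measure of how complete the RNA or cDNA was, averaged 0.140 ± 0.0419 in ρ0 cells without glucose and 0.249 ± 0.131 in ρ0 cells in glucose. In ρ+ cells it averaged 0.188 ± 0.00577 without glucose and 0.319 ± 0.0698 in glucose. The SPT15 ratio was thus lower on average after withdrawal in both strains. For ACT1 the ratio averaged 0.648 ± 0.161 in ρ0 cells without glucose, against 0.712 ± 0.103 in glucose. In ρ+ cells the ACT1 ratio averaged 0.633 ± 0.0333 without glucose, against 0.705 ± 0.00604 in glucose. It was thus higher than that of SPT15 in every group, and also lower on average after withdrawal. The ribosomal RNA controls had a mean log2 signal of 8.35 ± 0.52 in ρ0 cells without glucose, against 7.52 ± 0.38 in glucose, and of 8.61 ± 0.11 in ρ+ cells without glucose, against 7.29 ± 0.28 in glucose. They were thus higher on average after withdrawal. The part of any of these measures in the changes below was not tested. The bacteriophage hybridization control CreX was lowest on ρ0 glucose replicate 2, with 285, and on ρ0 no glucose replicate 1, with 487. The poly-A controls, behind 1 scaling used below, had a mean log2 signal of 3.57 ± 0.20 in ρ0 cells without glucose. It was 3.55 ± 0.05 in ρ0 cells in glucose. In ρ+ cells it was 3.67 ± 0.03 without glucose, against 3.75 ± 0.34 in glucose. These controls were dim and uneven between arrays, so poly-A control scaling is itself imprecise.

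Glucose withdrawal in ρ+ cells lowered 4 of the 10 genes and raised none, in the limma fit across all genes with adjusted p under 0.05. These were CDC5, CDC14, TEM1 and DBF2, and of all 5361 genes tested 22.3% were lower and 10.5% higher, 32.7% in either direction. In ρ0 cells withdrawal lowered 1 of 10, CDC5, where 12.4% of all genes were lower and 4.59% higher, 17.0% in all. In glucose 1 of 10 was higher in ρ0 than in ρ+ cells, CDH1, where 5.0% of all genes were higher and 1.45% lower, 6.45% in all. Without glucose 3 of 10 were higher in ρ0 cells, CDC20, CDC5 and DBF2, where 20.6% of all genes were higher and 9.4% lower, 30.0% in all. For the difference of the responses (ρ0 change minus ρ+ change) none of the 10 passed in the limma fit, and 1 had an unadjusted p under 0.05, where 1.57% of all genes were higher and 5.35% lower, 6.92% in all.

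Counts of genes whose 2 groups did not overlap were read against the same background. On withdrawal in ρ+ cells these were 5 lower and 1 higher of the 10, beside 35.1% and 16.5% of all genes. In ρ0 cells 2 were lower and none higher, beside 21.2% and 9.44%. For ρ0 against ρ+ cells 4 were higher and none lower in glucose, beside 22.6% and 8.06%. Without glucose 5 were higher and none lower, beside 31.4% and 13.5%. These are small counts, and the list was not tested against other genes. The median log2 change of the 10 genes was −0.30 for withdrawal in ρ+, where that of all genes was −0.19. For withdrawal in ρ0 it was −0.24 beside −0.11 for all genes. For ρ0 against ρ+ it was 0.32 beside 0.13 in glucose and 0.41 beside 0.21 without glucose. Centring the arrays on their medians removes most of this shift of all genes by construction. It left a median of 0.02 on withdrawal in ρ+ and of 0.01 for ρ0 against ρ+ without glucose. Changes of about the size of the removed shifts therefore depend on the scaling chosen. A fall in such bulk RNA cannot tell fewer cells in mitosis apart from less of the transcript in each cell.

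**Figure D1:**
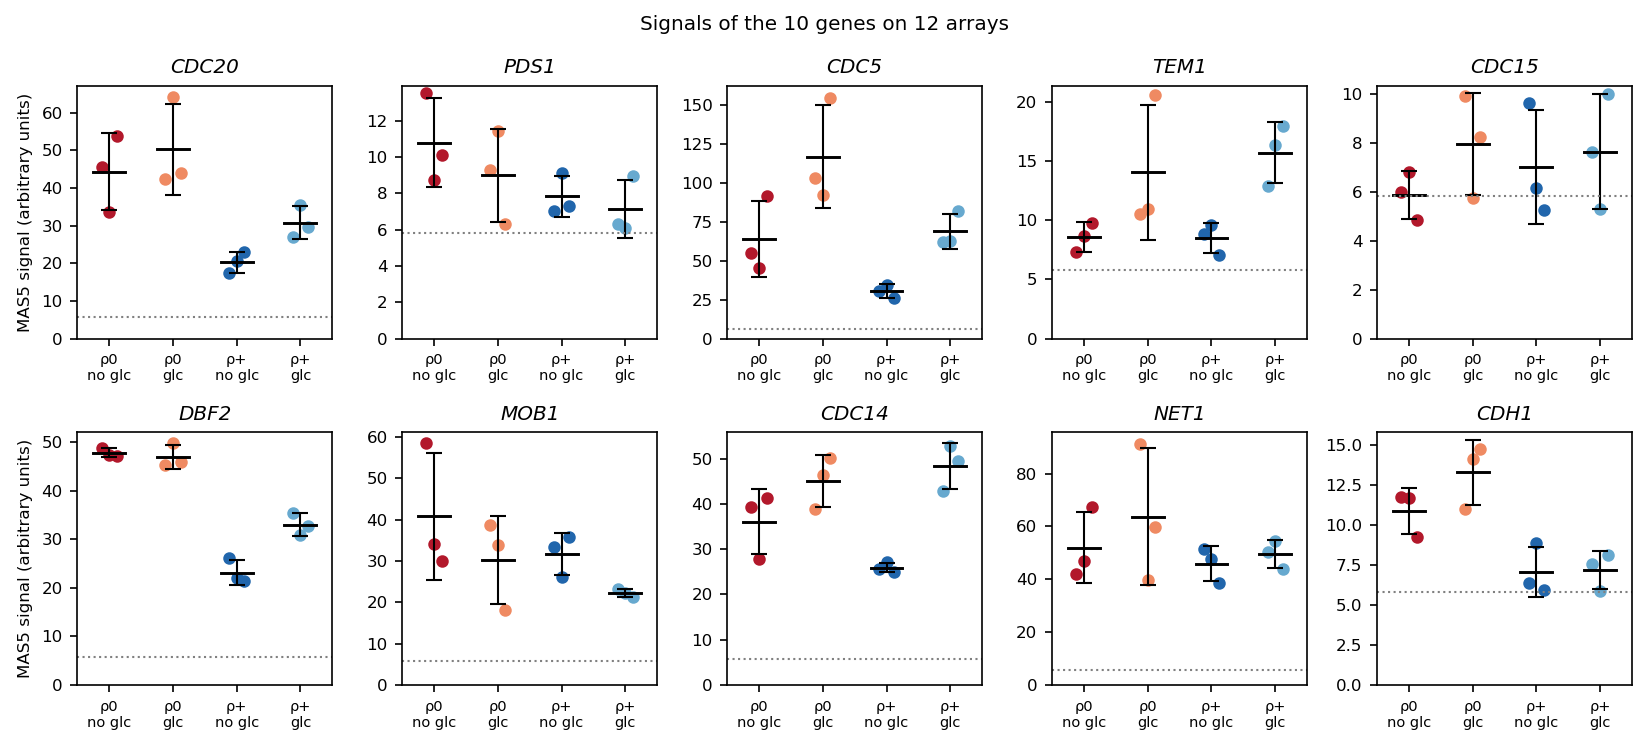
MAS5 signals (vertical axes, arbitrary units, from 0) of the 10 genes on the 12 arrays, in 4 groups along the horizontal axes. Each point is 1 array, black bars are the mean and SD of 3 arrays, and the dotted line is the detection level of 5.82; DBF2 separates ρ0 from ρ+ arrays without overlap, and CDC5 is lowest in ρ+ cells without glucose.

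Among the 3 genes of anaphase onset, CDC5 changed most on glucose withdrawal. CDC5, the polo kinase, gave signals of 54.9, 45.4 and 91.8 in ρ0 cells without glucose, against 104, 92.6 and 155 in ρ0 cells in glucose. The ρ+ arrays read 30.8, 34.7 and 26.0 without glucose, against 62.1, 62.7 and 81.8 in glucose. The arrays without glucose lay below those in glucose in both strains, and those of ρ0 lay above those of ρ+ in both media. The levels thus ran from ρ0 in glucose, the highest, to ρ+ without glucose, the lowest, and the other two groups overlapped each other.

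In ρ+ cells CDC5 fell 2.20-fold after withdrawal (log2 −1.13 ± 0.25 SE, adjusted p = 0.00332). In ρ0 cells it fell 1.84-fold (log2 −0.88 ± 0.25, adjusted p = 0.0247). This second call was lost without ρ0 glucose replicate 3 (adjusted p = 0.119), ρ0 no glucose replicate 1 (0.0872) or replicate 2 (0.116), with poly-A control scaling (0.0867) and when only the ρ0 arrays were fitted (0.0849). Without glucose CDC5 was 1.97-fold higher in ρ0 than in ρ+ cells (log2 0.98 ± 0.25, adjusted p = 0.00927). In glucose the log2 difference was 0.73, with a 95% interval of 0.20 to 1.26, and did not pass (adjusted p = 0.0915). It passed only without ρ0 no glucose replicate 3 (0.0491). The glucose responses of the strains differed by a log2 value of 0.25, with an interval of −0.50 to 1.01 (adjusted p = 0.703). CDC5 was therefore not shown to respond unlike in the 2 strains.

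CDC20, the activator that starts anaphase, gave 45.5, 33.6 and 53.8 in ρ0 cells without glucose, against 42.5, 64.1 and 44.0 in ρ0 cells in glucose. Signals in ρ+ cells were 17.4, 20.5 and 23.0 without glucose, against 26.9, 35.5 and 29.7 in glucose. In ρ0 cells the 2 media overlapped, whereas in ρ+ cells all arrays without glucose were below those in glucose. Within each medium all ρ0 arrays were above all ρ+ arrays. Without glucose CDC20 was 2.08-fold higher in ρ0 cells (log2 1.06 ± 0.21 SE, adjusted p = 0.00208). In glucose the log2 difference was 0.67, with an interval of 0.22 to 1.12, and missed the threshold (adjusted p = 0.0698). Withdrawal gave a log2 change of −0.57 in ρ+ cells, just outside the threshold (adjusted p = 0.0513), and of −0.18 in ρ0 cells (adjusted p = 0.608). The difference of these responses, 0.39 with an interval of −0.25 to 1.03, did not pass (adjusted p = 0.463).

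PDS1, the securin that Cdc20 targets, was dim and passed in no comparison. Its signals were 13.5, 8.74 and 10.1 in ρ0 cells without glucose, against 9.25, 11.4 and 6.29 in ρ0 cells in glucose. In ρ+ cells they were 7.05, 9.12 and 7.32 without glucose, against 6.33, 6.10 and 8.95 in glucose. The groups overlapped in all 4 comparisons between groups. The log2 change on withdrawal was 0.12 in ρ+ cells (interval −0.40 to 0.65) and 0.24 in ρ0 cells (interval −0.28 to 0.77). Its transcript therefore had no detectable change beside the fall of CDC5, within the limits of these intervals.

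The mitotic exit network showed different patterns for its members. TEM1, the GTPase at its head, gave 7.27, 8.68 and 9.75 in ρ0 cells without glucose, against 10.5, 10.97 and 20.6 in ρ0 cells in glucose. For ρ+ cells the signals were 8.82, 9.55 and 7.04 without glucose, against 12.9, 16.3 and 17.9 in glucose. All arrays without glucose were below those in glucose in both strains, while ρ0 and ρ+ cells overlapped in both media. TEM1 fell 1.72-fold in ρ+ cells (log2 −0.78 ± 0.25 SE, adjusted p = 0.0239). The call was lost after quantile normalization (0.0667), median centring (0.0858) and poly-A control scaling (0.142), and so it was without any 1 of ρ+ glucose replicates 2 (0.0765) and 3 (0.0939) and ρ+ no glucose replicate 3 (0.0856). In ρ0 cells the log2 change was −0.57, with an interval of −1.10 to −0.05 (adjusted p = 0.121).

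DBF2, the kinase at the end of the network, gave 48.8, 47.4 and 47.2 in ρ0 cells without glucose, against 45.3, 49.8 and 45.8 in ρ0 cells in glucose. In ρ+ cells it gave 26.1, 21.9 and 21.5 without glucose, against 35.5, 30.8 and 32.6 in glucose. Its replicates were close together. Every ρ0 array was above every ρ+ array, and the media overlapped in ρ0 cells only. DBF2 was 2.01-fold higher in ρ0 than in ρ+ cells without glucose (log2 1.01 ± 0.15 SE, adjusted p = 0.000242), the lowest adjusted p of the 10 genes in any comparison. In glucose the log2 difference was 0.49, with an interval of 0.17 to 0.81, and did not pass (adjusted p = 0.0633).

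On withdrawal DBF2 fell 1.402-fold in ρ+ cells (log2 −0.49 ± 0.15 SE, adjusted p = 0.0233). In ρ0 cells its log2 change was 0.03, with an interval of −0.30 to 0.35. The fall in ρ+ cells did not pass after quantile normalization (adjusted p = 0.216), median centring (0.201) or poly-A control scaling (0.234). Leaving out any 1 of ρ+ glucose replicates 1 (0.0758) and 3 (0.0619) and of ρ+ no glucose replicates 2 (0.0654) and 3 (0.0727) also ended the call. The responses of the strains differed by a log2 value of 0.51, with an interval of 0.06 to 0.97. It did not pass after adjustment over all genes (adjusted p = 0.169, limma).

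MOB1, the partner that Dbf2 needs for activity, gave 58.4, 34.1 and 30.0 in ρ0 cells without glucose, against 38.7, 33.8 and 18.2 in ρ0 cells in glucose. The ρ+ arrays read 33.4, 26.0 and 35.7 without glucose, against 23.3, 22.4 and 21.2 in glucose. In ρ+ cells all arrays without glucose were above those in glucose, and the other comparisons overlapped. The log2 change on withdrawal in ρ+ cells was 0.47, with an interval of −0.10 to 1.04 (adjusted p = 0.191). It passed when only the ρ+ arrays were fitted (adjusted p = 0.0385). The same change in ρ0 cells was 0.42, with an interval of −0.15 to 0.99.

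CDC15, the kinase between Tem1 and Dbf2, gave 5.97, 6.80 and 4.82 in ρ0 cells without glucose, against 9.88, 5.72 and 8.24 in ρ0 cells in glucose. Signals in ρ+ cells were 9.63, 6.14 and 5.24 without glucose, against 7.62, 5.28 and 9.97 in glucose. In every group 1 of 3 arrays was at or below the detection level, and all groups overlapped. None of the 4 comparisons between groups passed, with adjusted p between 0.419 and 0.926. No change in CDC15 was detected.

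CDC14, the phosphatase that reverses mitotic phosphorylation, gave 39.2, 27.9 and 41.2 in ρ0 cells without glucose, against 38.9, 46.5 and 50.1 in ρ0 cells in glucose. For ρ+ cells the signals were 25.7, 27.1 and 25.04 without glucose, against 42.9, 52.8 and 49.5 in glucose. The ρ+ arrays without glucose were the lowest of the 12 and close together, and the 2 strains overlapped in glucose. In ρ+ cells CDC14 fell 1.81-fold after withdrawal (log2 −0.86 ± 0.18 SE, adjusted p = 0.00233). In ρ0 cells the log2 change was −0.32, with an interval of −0.70 to 0.06 (adjusted p = 0.231). Without glucose the strains differed by a log2 value of 0.44, with an interval of 0.06 to 0.82, and this did not pass (adjusted p = 0.0771). The difference of the responses was 0.54 and did not pass either (adjusted p = 0.223, limma).

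NET1, the nucleolar anchor and inhibitor of Cdc14, passed in no comparison. It gave 41.8, 47.0 and 67.2 in ρ0 cells without glucose, against 91.3, 39.9 and 59.9 in ρ0 cells in glucose. In ρ+ cells it gave 51.6, 47.8 and 38.5 without glucose, against 50.3, 54.4 and 44.1 in glucose. The groups overlapped in every comparison, and the ρ0 glucose arrays held both the highest value and one of the lowest. Withdrawal gave a log2 change of −0.11 in ρ+ cells, with an interval of −0.65 to 0.43. In ρ0 cells it was −0.24, with an interval of −0.78 to 0.31.

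CDH1, the APC/C activator of late mitosis and G1, gave 11.8, 11.7 and 9.24 in ρ0 cells without glucose, against 11.01, 14.1 and 14.8 in ρ0 cells in glucose. The ρ+ arrays read 6.39, 8.87 and 5.97 without glucose, against 7.60, 5.86 and 8.17 in glucose. Every ρ0 array was above every ρ+ array, and the 2 media overlapped in both strains. In glucose CDH1 was 1.70-fold higher in ρ0 cells (log2 0.77 ± 0.22 SE, adjusted p = 0.0491). This call is at the edge of the threshold and was lost on leaving out any 1 of 11 of the 12 arrays, ρ+ no glucose replicate 2 being the exception. It was also lost after quantile normalization (adjusted p = 0.169) and median centring (0.151). Without glucose the log2 difference was 0.54, with an interval of 0.07 to 1.01 (adjusted p = 0.0741). On withdrawal the log2 change was −0.03 in ρ+ cells (interval −0.49 to 0.44) and −0.25 in ρ0 cells (interval −0.72 to 0.21).

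**Figure D2:**
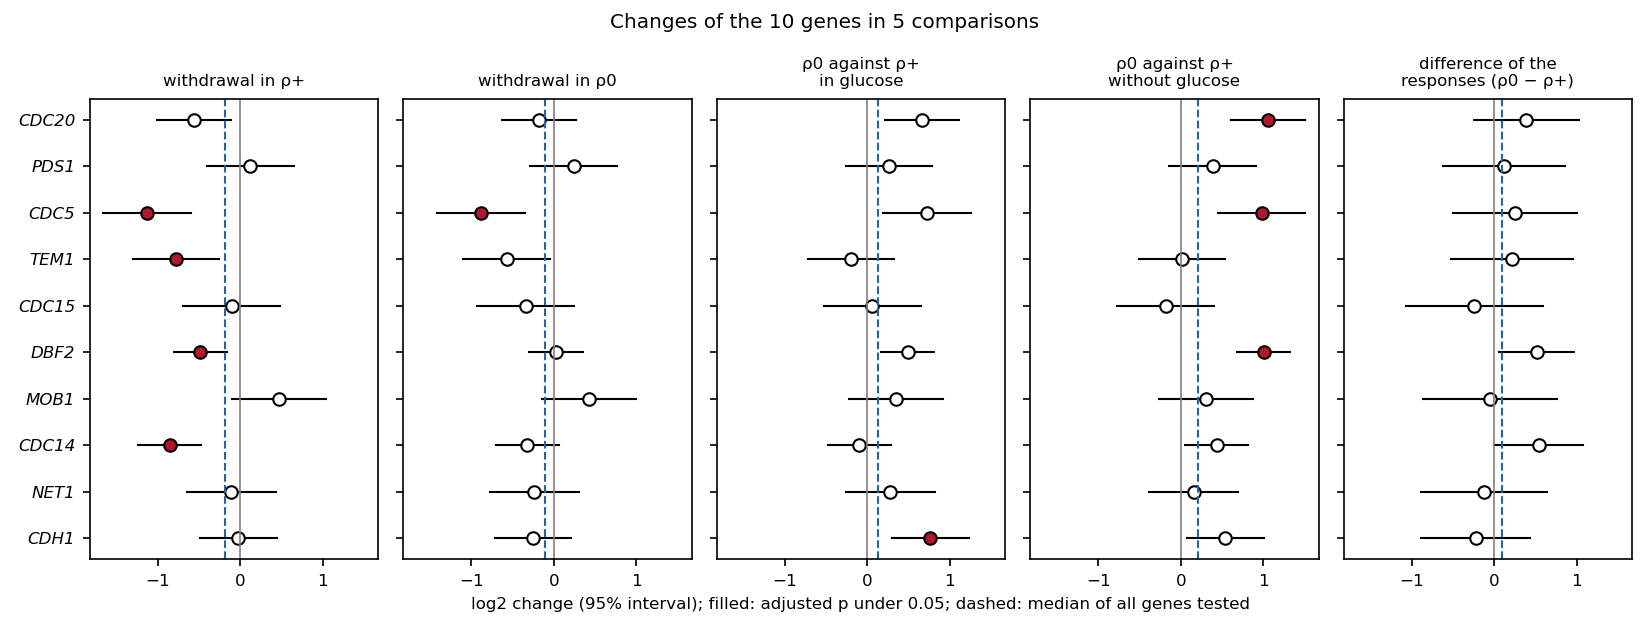
Log2 changes (horizontal axes) of the 10 genes in the 5 comparisons, with 95% intervals as lines; filled points passed an adjusted p of 0.05, and the dashed line is the median of all genes tested. CDC5 is filled in both withdrawal panels, CDC20, CDC5 and DBF2 are filled for ρ0 against ρ+ without glucose, and no point is filled for the difference of the responses.

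Ratios of genes that act together were taken within each array, on the scale of log2(signal + 1.498), so the scaling of the array cancels only in part and least for dim genes. The pairs were chosen after the values had been seen, so the ratios are given as a description, with no test. The log2 ratio of DBF2 over MOB1 in ρ+ cells averaged −0.42 ± 0.24 without glucose, against 0.54 ± 0.08 in glucose (SD, n = 3 each), and the arrays did not overlap. In ρ0 cells this ratio averaged 0.28 ± 0.47 without glucose, against 0.67 ± 0.54 in glucose, and the arrays overlapped. The shared probe set limits what the MOB1 signal stands for.

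The log2 ratio of CDC14 over NET1, the phosphatase over its inhibitor, averaged −0.78 ± 0.19 in ρ+ cells without glucose, against −0.03 ± 0.19 in glucose, without overlap. In ρ0 cells it averaged −0.50 ± 0.36 without glucose, against −0.41 ± 0.72 in glucose, with overlap. For the 2 APC/C activators, CDC20 over CDH1, the ratio averaged 1.35 ± 0.33 in ρ+ cells without glucose, against 1.89 ± 0.38 in glucose, and the arrays overlapped. In ρ0 cells this ratio averaged 1.87 ± 0.48 without glucose, against 1.79 ± 0.29 in glucose, again with overlap.

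**Figure D3:**
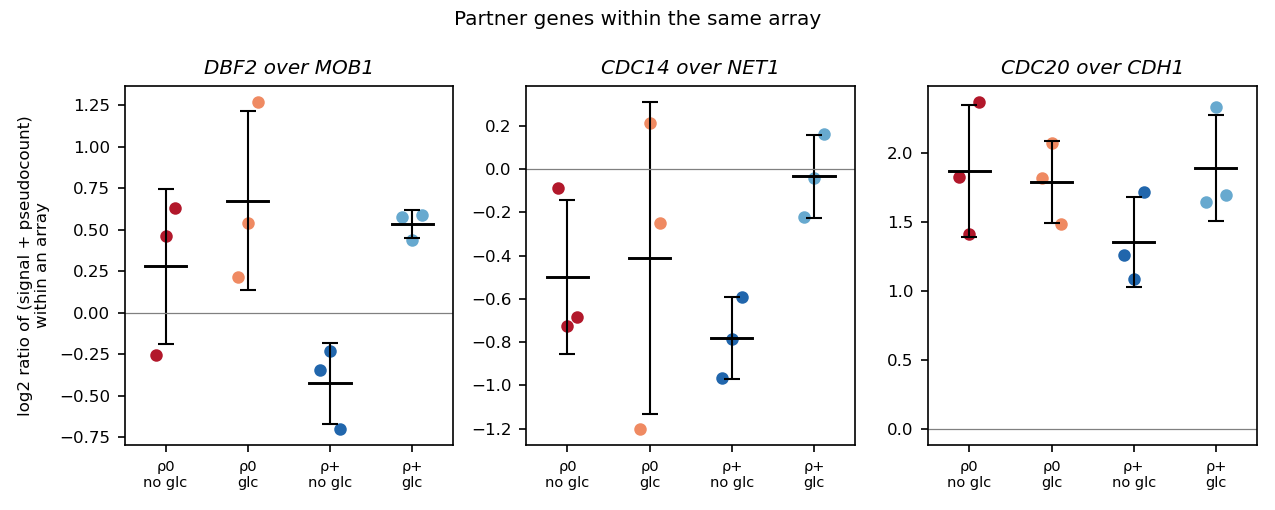
Log2 ratio of (signal + 1.498) of 2 partner genes within the same array (vertical axes), by group; points are arrays and black bars the mean and SD of 3. In ρ+ cells DBF2 over MOB1 and CDC14 over NET1 are lower without glucose on every array, while the ρ0 arrays of both media overlap.

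Across the 12 arrays the members varied together only in part. Of 45 pairs of members, 7 (15.6%) had a Pearson r above 0.7, beside 5.51% of all pairs of genes tested. The median r was 0.22, beside 0.08 over all pairs. The points share the 4 groups and their arrays, so these values are descriptions. The closest pairs were CDC20 with DBF2 (r = 0.87) and CDC5 with CDC14 (r = 0.83). TEM1 and MOB1 were the most opposed (r = −0.85). The genes whose log2 signal was most like that of CDC5 over the 12 arrays were ERV1 (r = 0.97, shared probe set), for a sulfhydryl oxidase of mitochondria, SPB4 (r = 0.96), for a helicase of ribosome assembly, and VMA22 (r = 0.96), for an assembly factor of the vacuolar proton pump. Those most like CDC20 were DIA2 (r = 0.97), for an F-box protein, YNR068C (r = 0.96) and SET1 (r = 0.95), for a histone methyltransferase. None of these 6 genes is a member of the lists used here.

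The rest of the pathway was read from lists of known genes in the same fit, and each call named held under every alternative tried unless stated. Of the 13 core subunits of the APC/C, 3 were lower and 1 higher after withdrawal in ρ+ cells, beside 22.3% and 10.5% of all genes, and the count of lower subunits was between 1 and 4 over the alternatives. The list median was −0.37, beside −0.19 for all genes. In ρ0 cells 2 were lower and none higher, beside 12.4% and 4.59% of all genes, with a median of −0.15 beside −0.11; the lower count was again between 1 and 4. CDC27, a scaffold subunit, averaged 12.7 ± 0.944 in ρ+ cells without glucose, against 35.1 ± 0.574 in glucose (SD, n = 3), and fell 2.58-fold (adjusted p = 0.00019). In ρ0 cells CDC27 averaged 15.3 ± 3.88 without glucose, against 41.5 ± 9.69 in glucose, and fell 2.57-fold (adjusted p = 0.000583). DOC1, a subunit that helps to bind substrates, rose 2.01-fold in ρ+ cells (adjusted p = 0.00618). Without glucose 1 of the 13 subunits was higher and 1 lower in ρ0 than in ρ+ cells, beside 20.6% and 9.4% of all genes. The list median there was 0.21, beside 0.21 for all genes. DOC1 was the lower one, at 12.9 ± 4.68 in ρ0 cells, against 29.2 ± 5.31 in ρ+ cells (adjusted p = 0.00361). CDC16, another scaffold subunit, was higher there, at 16.8 ± 7.98 in ρ0 cells, against 5.98 ± 0.976 in ρ+ cells (adjusted p = 0.00456). This ρ+ mean of CDC16 was close to the detection level, so the size of the difference is uncertain.

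Of 13 other tested genes of the mitotic exit network and of early Cdc14 release, 2 were lower and 1 higher after withdrawal in ρ+ cells, beside 22.3% and 10.5% of all genes. In ρ0 cells 1 was lower and 1 higher, beside 12.4% and 4.59%. AMN1, an antagonist of the exit network that binds Tem1, averaged 109 ± 21.7 in ρ0 cells without glucose, against 194 ± 21.6 in ρ0 cells in glucose. In ρ+ cells it averaged 42.0 ± 3.76 without glucose, against 188 ± 10.0 in glucose. It fell in both strains, 1.79-fold in ρ0 cells (adjusted p = 0.00537) and 4.37-fold in ρ+ cells (adjusted p = 4.83e-07). The responses differed by a log2 value of 1.29 ± 0.25 SE (adjusted p = 0.0045), a call lost with poly-A control scaling (0.0545). BUB2, part of the GTPase-activating complex that holds Tem1 off, averaged 151 ± 8.03 in ρ0 cells without glucose, against 82.1 ± 22.5 in glucose, and rose 1.87-fold (adjusted p = 0.00743). In ρ+ cells it averaged 110.3 ± 7.50 without glucose, against 68.4 ± 11.3 in glucose, and rose 1.61-fold (adjusted p = 0.0174), a call lost without ρ+ glucose replicate 2 (0.0921) or ρ+ no glucose replicate 2 (0.0522). Without glucose 4 of the 13 were higher in ρ0 than in ρ+ cells and none lower, beside 20.6% and 9.4% of all genes. Their median was 0.62 beside 0.21, and the higher count was between 2 and 6 over the alternatives. Among them was KIN4, a kinase that also restrains exit, at 45.0 ± 3.55 in ρ0 cells, against 20.2 ± 3.14 in ρ+ cells (adjusted p = 0.00208).

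Lists for chromosome cohesion and the spindle checkpoint were compared next. Of 7 tested checkpoint genes, 4 were higher in ρ0 than in ρ+ cells without glucose and none lower, beside 20.6% and 9.4% of all genes. Their median was 0.88, beside 0.21 for all genes, and the higher count was between 3 and 5 over the alternatives. The Aurora kinase gene IPL1 averaged 12.7 ± 3.38 in ρ0 cells, against 5.23 ± 1.45 in ρ+ cells (adjusted p = 0.00573), and BIR1, its survivin-like partner, 11.6 ± 1.29 against 5.31 ± 0.915 (adjusted p = 0.0135). The ρ+ means of IPL1 and BIR1 without glucose lay below the detection level, so the size of these differences is uncertain. Of 8 cohesin genes 3 were higher there (2 to 4 over the alternatives) and none lower, against the same background, among them SMC3, at 31.3 ± 5.88 against 15.0 ± 3.46, and the cohesin-associated PDS5, at 26.0 ± 6.96 against 11.9 ± 2.07 (adjusted p = 0.00481 and 0.00578). After withdrawal IPL1 and the cohesin acetyltransferase gene ECO1 were lower in ρ+ cells and the checkpoint gene MAD2 in ρ0 cells, and each of these 3 calls was lost under some alternatives. In ρ+ cells 1 of 7 checkpoint genes and 1 of 8 cohesin genes were lower and none higher, beside 22.3% and 10.5% of all genes. In ρ0 cells 1 checkpoint gene and no cohesin gene was lower, beside 12.4% of all genes. The count of lower checkpoint genes in ρ+ cells was between 0 and 4 over the alternatives.

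Other genes of the G2/M wave that CDC5 and CDC20 belong to were read likewise. Of 13 tested, 6 were lower in ρ+ cells after withdrawal and none higher, beside 22.3% and 10.5% of all genes, with a list median of −0.60 beside −0.19. The count of lower genes was between 2 and 6 over the alternatives. In ρ0 cells 2 were lower and 1 higher, beside 12.4% and 4.59% of all genes, with a median of −0.12 beside −0.11. CLB1, a mitotic cyclin, averaged 20.5 ± 1.74 in ρ0 cells without glucose, against 49.4 ± 4.14 in glucose, and fell 2.31-fold (adjusted p = 0.000673). CLB1 in ρ+ cells averaged 16.1 ± 3.43 without glucose, against 62.1 ± 9.75 in glucose (adjusted p = 4.3e-06). CLB2, the main mitotic cyclin, averaged 5.61 ± 2.42 in ρ0 cells without glucose, against 16.7 ± 3.95 in glucose (adjusted p = 0.00228). The CLB2 mean without glucose lay below the detection level, so the size of its fall is uncertain. Without glucose 6 of the 13 were higher in ρ0 than in ρ+ cells and none lower, beside 20.6% and 9.4% of all genes, and the higher count was between 4 and 7 over the alternatives. The largest differences were those of IQG1 and MYO1, for proteins of the contractile ring. IQG1 averaged 16.3 ± 1.25 in ρ0 cells, against 5.99 ± 5.17 in ρ+ cells (adjusted p = 0.0249), a call lost under 5 alternatives, among them quantile normalization (0.0585). The ρ+ mean of IQG1 was close to the detection level and its arrays spread widely, so the size of this difference is uncertain. MYO1 averaged 26.8 ± 7.63 in ρ0 cells, against 9.41 ± 1.14 in ρ+ cells (adjusted p = 0.000965), a call lost when all its probe sets were averaged (0.558).

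The transcription factors of that wave did not move as one. MCM1, its constitutive DNA-binding factor, averaged 43.4 ± 10.3 in ρ0 cells without glucose, against 80.1 ± 14.9 in ρ+ cells without glucose. It was lower in ρ0 cells there (adjusted p = 0.00583, but 0.0554 with poly-A control scaling). The forkhead factor FKH1 went the other way, at 35.1 ± 6.05 in ρ0 cells, against 16.2 ± 3.59 in ρ+ cells (adjusted p = 0.00294). FKH2, the forkhead partner of Mcm1, averaged 16.5 ± 2.28 in ρ0 cells, against 9.64 ± 1.403 in ρ+ cells (adjusted p = 0.0297). The FKH2 call was lost after quantile normalization (0.129), median centring (0.147) and poly-A control scaling (0.0538). It was lost as well without any 1 of ρ+ no glucose replicates 2 (0.0939) and 3 (0.0589) and ρ0 no glucose replicates 1 (0.0501) and 2 (0.0973). NDD1, the coactivator, did not pass there (log2 0.37, adjusted p = 0.272).

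Transcripts of neighbouring phases were read as well. Of 13 tested G1/S transcripts, 4 were lower and 1 higher in ρ+ cells after withdrawal, beside 22.3% and 10.5% of all genes, with a median of −0.41. In ρ0 cells 1 was lower and 1 higher, beside 12.4% and 4.59%. PCL1, another G1 cyclin gene, averaged 4.52 ± 1.58 in ρ+ cells without glucose, against 11.6 ± 1.73 in glucose (adjusted p = 0.00621). The PCL1 mean without glucose lay below the detection level, so the size of its fall is uncertain. POL2, for a DNA polymerase subunit, averaged 52.4 ± 3.98 in ρ+ cells without glucose, against 27.6 ± 12.1 in glucose (adjusted p = 0.0154). The POL2 call was lost when all its probe sets were averaged (0.957) and without ρ+ glucose replicate 2 (0.0628) or 3 (0.0858). PCL1 and POL2 were also the lower and the higher gene called in ρ0 cells. There the PCL1 call was lost without ρ0 glucose replicate 3 (adjusted p = 0.0587). The POL2 call in ρ0 cells was lost, for example, when all its probe sets were averaged (0.594). CLN1, a G1 cyclin, averaged 10.3 ± 2.49 in ρ+ cells without glucose, against 22.9 ± 2.64 in glucose (adjusted p = 0.00112). Without glucose 7 of the 13 were higher in ρ0 than in ρ+ cells and none lower, beside 20.6% and 9.4% of all genes, with a median of 0.67 beside 0.21. That count of higher genes was between 4 and 8 over the alternatives. Among them RNR1, for ribonucleotide reductase, averaged 303 ± 91.5 in ρ0 cells, against 131 ± 33.8 in ρ+ cells (adjusted p = 0.00741). Of 10 histone genes 4 had a probe set of their own, and their median log2 change on withdrawal was 0.18 in ρ+ and −0.10 in ρ0 cells. The share of cells in each phase was not measured.

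**Figure D4:**
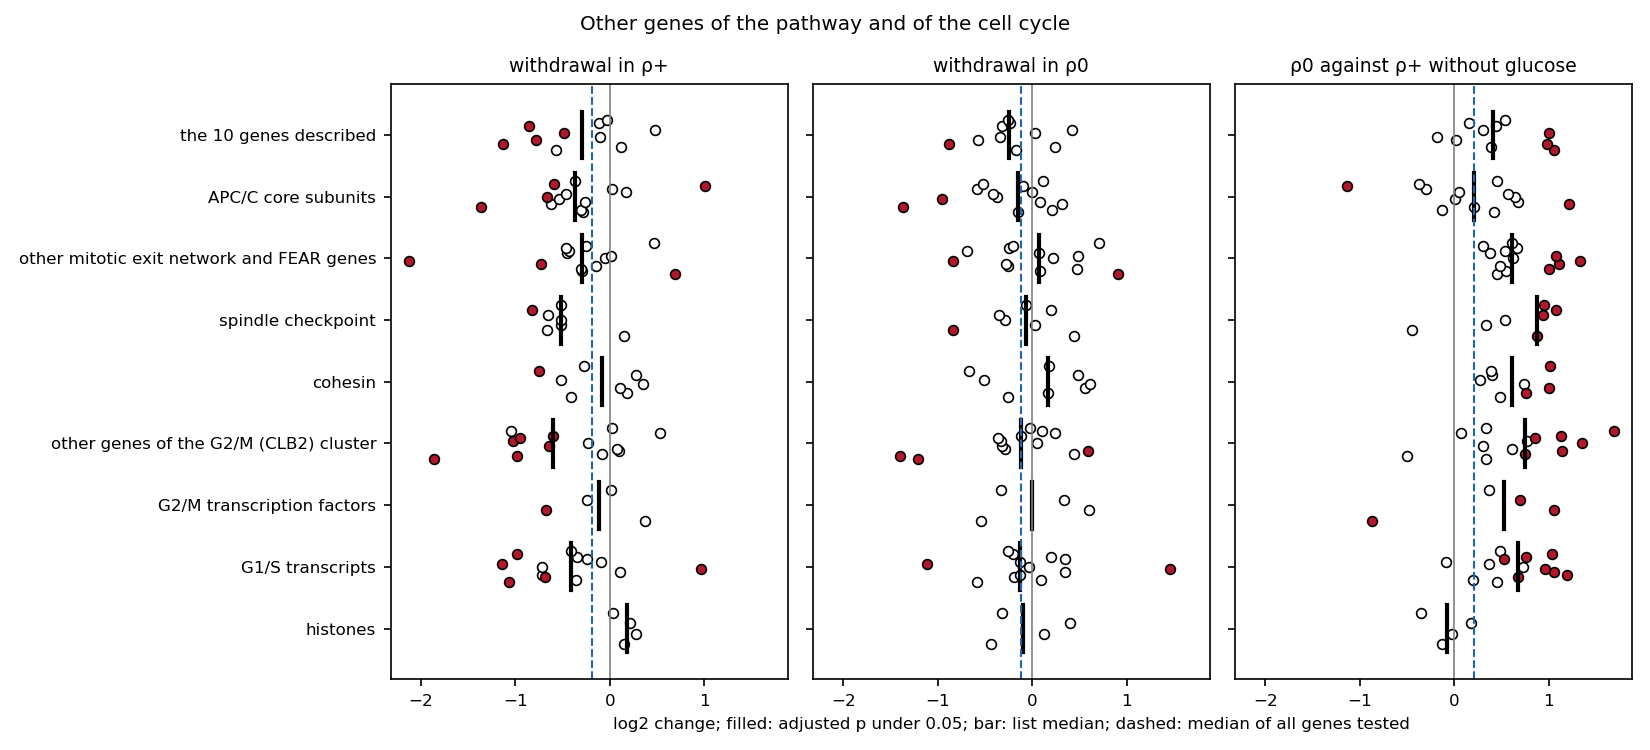
Log2 changes (horizontal axes) of the 10 genes described and of the other gene lists, 1 point per gene, for withdrawal in ρ+, withdrawal in ρ0 and ρ0 against ρ+ without glucose; filled points passed an adjusted p of 0.05, bars are list medians and the dashed line is the median of all genes tested. In the right panel the medians of the checkpoint, G2/M cluster and G1/S lists lie at 0.88, 0.75 and 0.67, right of the 0.21 of all genes. Those of the exit network, cohesin and G2/M transcription factor lists lie at 0.62, 0.61 and 0.53. The APC/C median lies at 0.21 and that of the histones at −0.08.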

How the data were processed

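Polyadenylated RNA of 12 yeast samples was measured on 1-colour Affymetrix arrays, each culture having been divided between the media. The deposited values are linear signal intensities made with MAS5 by the authors, as the submitters' processing notes state. Its version and scaling target were not given in the sources used here. Trimmed of the lowest and highest 2% of the 9335 probe sets, the mean signal of each array was 100.1. The platform annotation gives 1 gene to 6504 probe sets, several to 328 and none to 2503, and the 6504 all matched the RefSeq table of assembly R64. No build is stated for the array, so no coordinates are given. A gene with several probe sets was represented by the one of highest mean signal.

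The scale was log2(signal + 1.498), the pseudocount being the 10th percentile of all signals, and fold changes on this scale understate those of dim genes. Genes with a group mean above 5.82 (25th percentile) were tested, 5361 in all. Group means of the 4 groups were estimated together from the 12 arrays (limma 3.58.1, R 4.3.3, eBayes with an intensity trend), with Benjamini-Hochberg adjustment over all genes tested. Intervals are 95% intervals of that fit. The labels do not tie replicate numbers to a culture, so no block was used. The fit was tested on simulated data. The alternatives were other pseudocounts, floors, filters, normalizations, fits and probe set rules, a replicate block, and leaving out each array. Leaving out both arrays with low hybridization controls was added after seeing the data. The number of arrays limits the precision.

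The 10 genes and the lists were chosen with earlier results of these data known. The text names all 10 genes, all 4 G2/M transcription factors, OLI1, COX1, and the 3 genes most like CDC5 and CDC20. It also names some of the called list genes with the 2 largest changes in each direction, mainly calls that held under the alternatives. The result of 1 further gene list is not reported here.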

Additional observations from a re-analysis of the deposited data

How the results depend on the processing

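Of 1240 alternative values of the 10 genes in the 5 comparisons, 35 lost a call, 11 gained one and no called value changed sign, while 44 values that were called in neither setting changed sign. CDC5 and CDC14 kept their fall in ρ+ cells, and CDC20, CDC5 and DBF2 their higher level in ρ0 cells without glucose, under every alternative run. The number of genes called for withdrawal in ρ+ was 4, and 2 with quantile normalization, median centring or poly-A control scaling, CDC5 and CDC14 being left. Over the fits without 1 array it ranged from 2 to 5, the fifth being CDC20. It was also 5 without both arrays with low hybridization controls, and 6 in the fit to the 2 groups alone, with CDC20 and MOB1 added. Calls over all genes rose as well, from 561 higher and 1193 lower of 5361 in the main fit. They were 654 and 1397 of 5362 without both arrays, and 723 and 1492 of 5266 in the fit to the 2 groups. For withdrawal in ρ0 the 1 call became 0 with poly-A control scaling and in the fit to the 2 groups alone, and ranged from 0 to 1 without 1 array. The fit to the 2 ρ0 groups called 89 higher and 334 lower of 5301 genes, against 246 and 666 in the main fit. For ρ0 against ρ+ in glucose the count of 1 became 0 with a pseudocount of 1, quantile normalization, median centring and the 2-group fit. It was 0 too with the replicate block and without both arrays with low hybridization controls. Without 1 array it ranged from 0 to 1. The call left without ρ0 no glucose replicate 3 was CDC5 (adjusted p = 0.0491, limma), where CDH1 was lost (0.0502). For ρ0 against ρ+ without glucose the count was 3 or 4 throughout, and for the difference of the responses 0. Where no construction of the alternative shows it, the cause was not tested.

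Scaling moved the split of calls over all genes. For withdrawal in ρ+ the deposited scale gave 561 higher and 1193 lower, quantile normalization 644 and 760, median centring 807 and 548, and poly-A control scaling 426 and 414. For withdrawal in ρ0 these pairs were 246 and 666, 350 and 495, 444 and 382, and 96 and 291. For ρ0 against ρ+ in glucose they were 268 and 78, 127 and 118, 118 and 160, and 354 and 22, and without glucose 1102 and 504, 516 and 601, 442 and 740, and 903 and 288. For the difference of the responses poly-A control scaling gave 9 and 179, where the deposited scale gave 84 and 287.

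The replicate block paired arrays of the same number within a strain for withdrawal and for the difference of the responses. For ρ0 against ρ+ the number was a block over all 4 groups, which the divided cultures give no ground for. The counts of called members with the block were 4, 1, 0, 3 and 0 in the 5 comparisons. Over all genes the block called 367 higher and 851 lower on withdrawal in ρ0, against 246 and 666 without it. The protocol divides each culture between the media, but the labels do not tie the numbers to a culture, so the main fit was not paired. Same-numbered arrays of the 2 media correlated in their deviations by −0.03 to 0.11 in ρ+ and by 0.00 to 0.52 in ρ0. Arrays of unlike number correlated by −0.08 to 0.06 in ρ+ and by −0.41 to 0.28 in ρ0. These ranges overlap and do not settle whether the numbers mark a shared culture. Between the strains, same-numbered arrays correlated by −0.11 to 0.34 in glucose and by −0.08 to 0.12 without glucose. Arrays of unlike number correlated between the strains by −0.41 to 0.21 in glucose and by −0.12 to 0.10 without glucose. The low signal of CDC15, PDS1 and CDH1 over background limits what could be seen of them.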
